A study of Mus musculus with 9 samples.

Results

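Semaphorins are guidance ligands that were found through their effect on growing axons and are also used by blood vessels and immune cells. They act through plexins, whose intracellular part switches off small GTPases and loosens adhesion, and the secreted class 3 members bind neuropilins as coreceptors. Robo receptors for Slit proteins and Unc5 receptors for netrins form parallel guidance systems, and Robo4 and Unc5b are the members of these families best known from endothelium. The 10 genes described here were named by symbol: the ligands Sema3c, Sema4d, Sema6d and Sema7a, the plexins Plxnd1 and Plxna2, the neuropilin Nrp2, the guidance receptors Robo4 and Unc5b, and Plxdc2, which shares only a short plexin-type domain with the plexins. All 10 were measured, each by a probe set with a single gene symbol, among 19937 genes of the arrays.

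The arrays hold RNA of cells sorted from wild type C57BL/6 mice: 3 arrays of Ly6C-high microglia (cell type MgSCs in the labels), 3 of Ly6C-low microglia (labelled bulk microglia cells) and 3 of spleen monocytes. Brains were perfused and digested, leukocytes were enriched on Percoll, and cells were sorted on CD45, CD11b, Ly6C, F4/80 and MHC II. Age, pooling of animals and the separate origin of replicates are not stated in the labels. The p-values therefore reflect only how far these arrays of a group differ, and that spread may be technical. Values are log2 intensities of the arrays, a scale on which 1 unit is a doubling, and the level of a probe set cannot be set against that of another.

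Each sort was checked against marker genes. The Ly6C-high arrays went against their label in part. All 13 brain endothelium markers were higher in Ly6C-high than in Ly6C-low microglia (median log2 fold change 3.51) and all 9 measured markers of homeostatic microglia were lower (median -2.94). The mean of the endothelium list ran from 10.51 to 11.04 in Ly6C-high microglia, whereas Ly6C-low microglia had 6.41 to 7.75 and monocytes 6.43 to 6.50. The mean of the microglia list ran from 7.84 to 8.74, from 10.89 to 11.39 and from 6.81 to 6.95 in the same order of groups. Ly6C-high replicate 2 stood apart in the classical monocyte list (9.67, against 7.66 and 6.55 in the other Ly6C-high arrays), and Ly6C-low replicate 3 in the neutrophil list (9.81, against 6.97 and 7.31 in the other Ly6C-low arrays). The monocyte arrays had the highest classical monocyte list (10.15 to 10.46, against 6.55 to 9.67 in the microglia arrays). They also carried T cell (8.24 to 8.57) and B cell lists (8.49 to 9.10) that lay between 5.22 and 6.02 in all microglia arrays. Their neutrophil list lay at 10.41 to 10.86, against 5.90 to 9.81 in the microglia arrays. Their NK cell list lay at 6.60 to 7.80, against 4.72 to 5.08. Correlations between arrays across genes were 0.909 to 0.946 within Ly6C-high microglia, 0.977 to 0.989 within Ly6C-low microglia and 0.986 to 0.992 within monocytes.

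**Figure D1:**
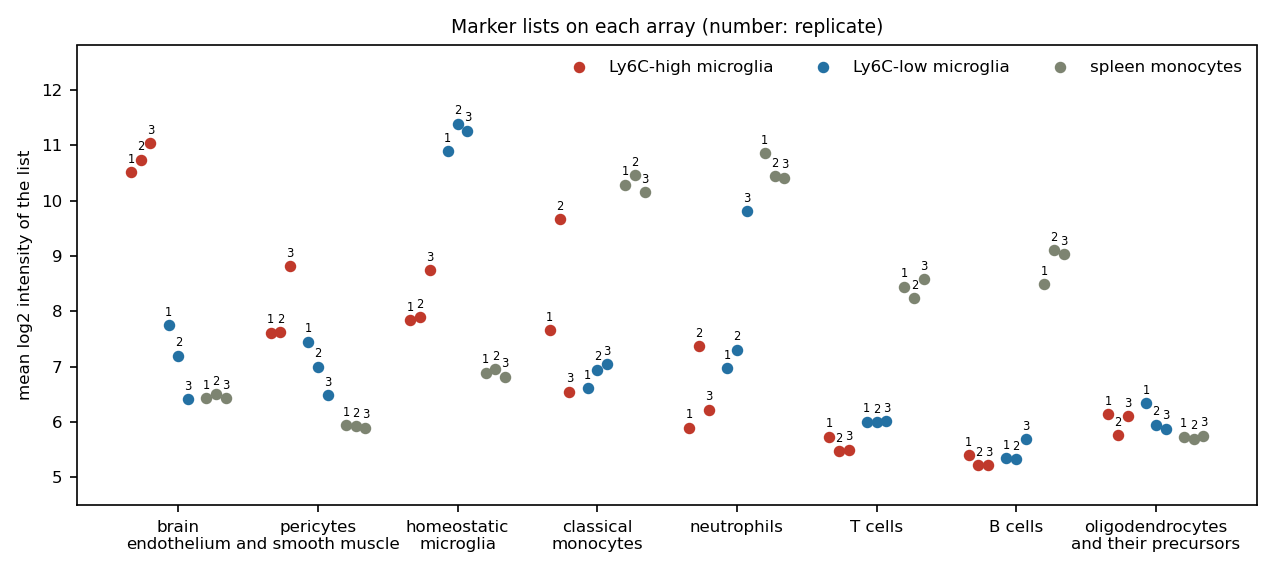
Mean log2 intensity (vertical axis) of 8 marker lists on each of the 9 arrays; the small number is the replicate. The brain endothelium list lies at 10.51 to 11.04 in Ly6C-high microglia and at or below 7.75 elsewhere, and the homeostatic microglia list is highest in Ly6C-low microglia.

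Between the microglia groups, 8 of the 10 guidance genes changed. Sema3c, Sema7a, Plxnd1, Plxna2, Robo4 and Unc5b were higher in Ly6C-high microglia, by 4.37-fold to 20.6-fold, and Sema4d and Plxdc2 were lower, by 4.04-fold and 14.1-fold. Sema6d and Nrp2 did not pass the test, which was an adjusted p under 0.05 in a limma fit of all genes. Of all genes 15.4% passed it in this comparison, 4.49% as higher and 11% as lower in Ly6C-high microglia. The median log2 fold change was 2.16 over the 10 genes and 0.05 over all genes. The 10 genes were chosen with earlier results of these data known. Their counts and medians, here and against monocytes, therefore only describe them. The arrays of the microglia groups did not overlap for any of the 10 genes, as for 30.1% of all genes. In a sorted population, fewer cells of a type and less RNA per cell cannot be told apart.

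**Figure D2:**
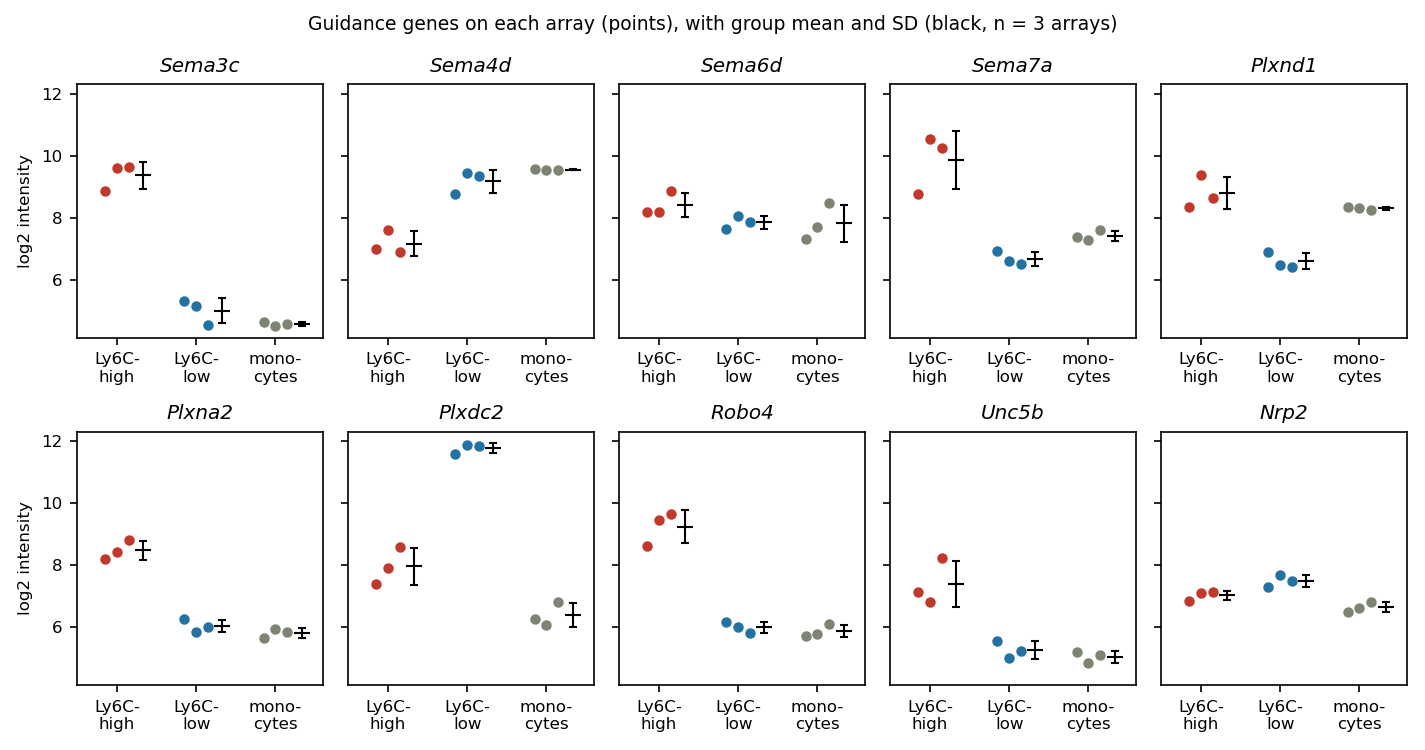
Log2 intensity (vertical axis) of the 10 genes on each array (points, in the order of replicates 1 to 3), with the mean and SD of each group in black (n = 3 arrays). Sema3c, Robo4, Plxna2 and Unc5b are high in Ly6C-high microglia alone, Plxdc2 is highest in Ly6C-low microglia, and Sema4d is lowest in Ly6C-high microglia.

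The promoters of the genes that were higher together in Ly6C-high microglia were read from RefSeq (GRCm38.p6), which held 12 windows of 300 bases for 9 of the 10 genes. The count of CpG dinucleotides per window was 42 for Sema3c, 36 for Unc5b, 25 for Plxna2, 23 for Sema7a, 23 for Plxnd1 and 2 for Robo4, with a median of 7 and quartiles of 3 and 20 over all 32851 promoters. The 3 windows of Sema4d had 2 or 3. Nrp2, which did not pass between the microglia groups, had 37, and the windows of Sema6d, which did not pass either, had 14 and 6. Plxdc2 had no window. The upstream 250 bases of Sema3c (chr5:17574566-17574815, plus strand) and Robo4 (chr9:37401722-37401971, plus strand) are shown because these genes had nearly the same pattern over the arrays and lie at the ends of this range, beside a start of the oppositely placed Sema4d (chr13:51756684-51756933, minus strand). They run 5′ to 3′ toward the gene, with CpG dinucleotides in capitals.
Sema3c: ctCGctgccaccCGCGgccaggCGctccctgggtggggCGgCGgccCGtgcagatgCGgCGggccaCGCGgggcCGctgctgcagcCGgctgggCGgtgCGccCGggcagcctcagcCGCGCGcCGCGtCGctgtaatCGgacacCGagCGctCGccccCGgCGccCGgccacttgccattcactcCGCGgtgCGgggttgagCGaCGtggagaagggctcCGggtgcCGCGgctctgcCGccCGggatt
Robo4: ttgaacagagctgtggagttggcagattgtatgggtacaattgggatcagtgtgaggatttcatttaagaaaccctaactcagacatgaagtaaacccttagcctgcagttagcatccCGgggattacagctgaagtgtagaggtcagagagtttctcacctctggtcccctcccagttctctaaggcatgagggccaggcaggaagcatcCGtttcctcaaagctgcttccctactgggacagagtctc
Sema4d: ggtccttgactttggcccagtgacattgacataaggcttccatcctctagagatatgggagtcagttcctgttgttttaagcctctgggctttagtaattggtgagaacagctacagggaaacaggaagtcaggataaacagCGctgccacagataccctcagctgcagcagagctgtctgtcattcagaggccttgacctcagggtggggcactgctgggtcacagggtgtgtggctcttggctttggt

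Both strands of the windows were searched for the ETS family strings AGGAAGT and CGGAAGT, the PU-box GAGGAAGT, which contains AGGAAGT, the SOX family strings ACAAAG and ATTGTT, and TATAAA and CACGTG. Among the 6 genes that were higher in Ly6C-high microglia, the only match was ACAAAG in Sema3c at position 6 from the start, a string found in 18.7% of all promoters. The Sema4d window shown held AGGAAGT at position -127 from the start, as did 9.35% of all promoters, and another Sema4d window held ATTGTT (10.7%). The Sema6d windows held CACGTG (7.15%) and ACAAAG. A match describes these letters only.

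Among the ligands, Sema3c is a secreted class 3 semaphorin that signals through neuropilins with Plxnd1 or A-type plexins. It stood at 8.87, 9.61 and 9.66 in Ly6C-high microglia, against 5.32, 5.16 and 4.56 in Ly6C-low microglia and 4.65, 4.51 and 4.59 in monocytes. All 3 Ly6C-high arrays lay far above the other 6, and the Ly6C-low and monocyte arrays overlapped. The log2 fold change was 4.36 ± 0.25 (SE) against Ly6C-low microglia (adjusted p = 2.82e-05) and 4.80 ± 0.25 against monocytes (adjusted p = 1.38e-05). Ly6C-low microglia and monocytes differed by 0.43 ± 0.25, with an interval of -0.14 to 1.01 (95%), which did not pass (adjusted p = 0.347).

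Sema7a is anchored to the membrane by a lipid (GPI) and is known to act through beta 1 integrins and Plxnc1. It read 8.79, 10.55 and 10.27 in Ly6C-high microglia, 6.93, 6.61 and 6.50 in Ly6C-low microglia and 7.38, 7.29 and 7.62 in monocytes. Ly6C-high replicate 1 was the lowest of its group but above every other array. Sema7a was higher in Ly6C-high than in Ly6C-low microglia by 3.19 ± 0.40 (9.12-fold, adjusted p = 0.00109) and than in monocytes by 2.44 ± 0.40 (5.44-fold, adjusted p = 0.00365). The lower level of Ly6C-low microglia than monocytes (-0.74 ± 0.40, no overlap) did not pass the test (adjusted p = 0.306). It passed without Ly6C-high replicate 1, which adds to the shared estimate of the spread (adjusted p = 0.0139).

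Sema4d, also known as CD100, is a transmembrane semaphorin of T cells, B cells and myeloid cells that signals through B-type plexins and Cd72. It went the other way, with 7.0, 7.62 and 6.91 in Ly6C-high microglia, 8.77, 9.44 and 9.36 in Ly6C-low microglia and 9.58, 9.54 and 9.56 in monocytes. Within Ly6C-high microglia it was highest in replicate 2, the array with the highest classical monocyte list. The log2 fold change was -2.01 ± 0.23 against Ly6C-low microglia (adjusted p = 6.31e-04) and -2.38 ± 0.23 against monocytes (adjusted p = 2.24e-04). Ly6C-low microglia and monocytes differed by -0.37 ± 0.23 (interval -0.89 to 0.15, adjusted p = 0.379). A second, dimmer probe set of Sema4d moved the same way between the microglia groups, with 6.99, 6.43 and 6.46 in Ly6C-high microglia and 7.69, 7.18 and 7.43 in Ly6C-low microglia, and stood at 7.24, 7.24 and 7.17 in monocytes. The mean of both probe sets gave -1.41 between the microglia groups.

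Sema6d, a transmembrane semaphorin that binds A-type plexins, was the flattest of the ligands. It read 8.19, 8.20 and 8.86 in Ly6C-high microglia, 7.66, 8.08 and 7.86 in Ly6C-low microglia and 7.31, 7.69 and 8.47 in monocytes. The monocyte arrays alone spanned 1.17 log2 units, more than any difference between group means. None of its comparisons passed (adjusted p of 0.278, 0.183 and 0.968 for Ly6C-high against Ly6C-low microglia, Ly6C-high microglia against monocytes and Ly6C-low microglia against monocytes). The interval of the difference between the microglia groups, -0.15 to 1.25, leaves room for more than a doubling. Without monocyte replicate 3 the difference from monocytes in Ly6C-high microglia was 0.92 and just under the threshold (adjusted p = 0.0497).

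Of the receptors, Plxnd1 is the plexin of developing vessels and the receptor of Sema3e. It stood at 8.37, 9.39 and 8.65 in Ly6C-high microglia, 6.91, 6.49 and 6.41 in Ly6C-low microglia and 8.36, 8.31 and 8.25 in monocytes. Ly6C-low microglia were thus the low group, by 2.20 ± 0.25 below Ly6C-high microglia (adjusted p = 6.43e-04), while the Ly6C-low level against monocytes was -1.70 ± 0.25 (adjusted p = 0.00231). Ly6C-high microglia exceeded monocytes by 0.50 ± 0.25 without passing (interval -0.07 to 1.07, adjusted p = 0.176), and passed under quantile normalization (1.02, adjusted p = 0.00747) and cyclic loess (0.94, adjusted p = 0.0176). The highest Ly6C-high array, replicate 2, was again the one with the highest classical monocyte list. Sema7a was also highest of its group on that array (10.55), though it was lower in monocytes (mean 7.43) than in Ly6C-high microglia (mean 9.87). Without that array and Ly6C-low replicate 3, the difference of Plxnd1 between the microglia groups was 1.81 (adjusted p = 0.00224).

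Plxna2, an A-type plexin that binds Sema6a and, with neuropilins, class 3 semaphorins, read 8.20, 8.42 and 8.82 in Ly6C-high microglia. It read 6.26, 5.86 and 6.00 in Ly6C-low microglia and 5.65, 5.95 and 5.86 in monocytes. The Ly6C-high arrays were the high group by 2.44 ± 0.18 over Ly6C-low microglia (adjusted p = 8.27e-05) and 2.66 ± 0.18 over monocytes (adjusted p = 3.59e-05), and the others overlapped (0.22 ± 0.18, interval -0.19 to 0.63, adjusted p = 0.536).

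Nrp2, a coreceptor for class 3 semaphorins and for VEGF-C in lymphatic vessels, had the smallest spread of levels with an ordered pattern. Its values were 6.86, 7.10 and 7.14 in Ly6C-high microglia, 7.31, 7.68 and 7.49 in Ly6C-low microglia and 6.50, 6.64 and 6.82 in monocytes. No 2 groups overlapped. Only Ly6C-low microglia against monocytes passed (0.84 ± 0.14, 1.79-fold, adjusted p = 0.00458). The difference between the microglia groups was -0.46 ± 0.14 (adjusted p = 0.0633), and that between Ly6C-high microglia and monocytes 0.38 ± 0.14 (adjusted p = 0.0871).

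Robo4, the Robo receptor of endothelium, stood at 8.64, 9.46 and 9.64 in Ly6C-high microglia, 6.16, 6.00 and 5.83 in Ly6C-low microglia and 5.73, 5.79 and 6.11 in monocytes. Its level in Ly6C-high microglia was 9.51-fold that of Ly6C-low microglia (3.25 ± 0.25 on the log2 scale, adjusted p = 1.05e-04) and 10.3-fold that of monocytes (3.37 ± 0.25, adjusted p = 5.95e-05). Unc5b, a netrin receptor that also binds Robo4 and is known from arterial tip cells, read 7.15, 6.82 and 8.22 in Ly6C-high microglia, 5.57, 5.02 and 5.22 in Ly6C-low microglia and 5.20, 4.84 and 5.10 in monocytes. Its Ly6C-high arrays spanned 1.40 log2 units, and replicate 3, the highest, also had the highest pericyte and smooth muscle list (8.81, against 7.61 and 7.62). That array was highest of its group in the endothelium list (11.04, against 10.51 and 10.73) and the homeostatic microglia list (8.74, against 7.84 and 7.90) as well. In the classical monocyte list it was lowest (6.55). Unc5b was higher in Ly6C-high than in Ly6C-low microglia by 2.13 ± 0.33 (adjusted p = 0.00297) and than in monocytes by 2.35 ± 0.33 (adjusted p = 0.00171). For neither receptor did Ly6C-low microglia and monocytes differ beyond their spread (Robo4 0.12 ± 0.25, interval -0.46 to 0.69, adjusted p = 0.858, and Unc5b 0.22 ± 0.33, interval -0.54 to 0.98, adjusted p = 0.779).

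Plxdc2, a membrane protein that binds the secreted factor PEDF, was the one gene with 3 separate levels in all tests. It stood at 7.38, 7.92 and 8.58 in Ly6C-high microglia, 11.59, 11.88 and 11.85 in Ly6C-low microglia and 6.28, 6.07 and 6.82 in monocytes. Ly6C-high microglia lay below Ly6C-low microglia (-3.82 ± 0.30, adjusted p = 1.14e-04) and above monocytes (1.57 ± 0.30, 2.97-fold, adjusted p = 0.00772). Ly6C-low microglia exceeded monocytes by 5.39 ± 0.30 (41.8-fold, adjusted p = 1.42e-05), the largest difference among the 10 genes. Its relative Plxdc1 was likewise lower in Ly6C-high than in Ly6C-low microglia (7.03 ± 0.66 against 9.21 ± 0.27, SD, n = 3 each, adjusted p = 0.00199), and did not differ from monocytes (7.50 ± 0.25) beyond the threshold (-0.47 ± 0.31, interval -1.18 to 0.24, adjusted p = 0.276).

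**Figure D3:**
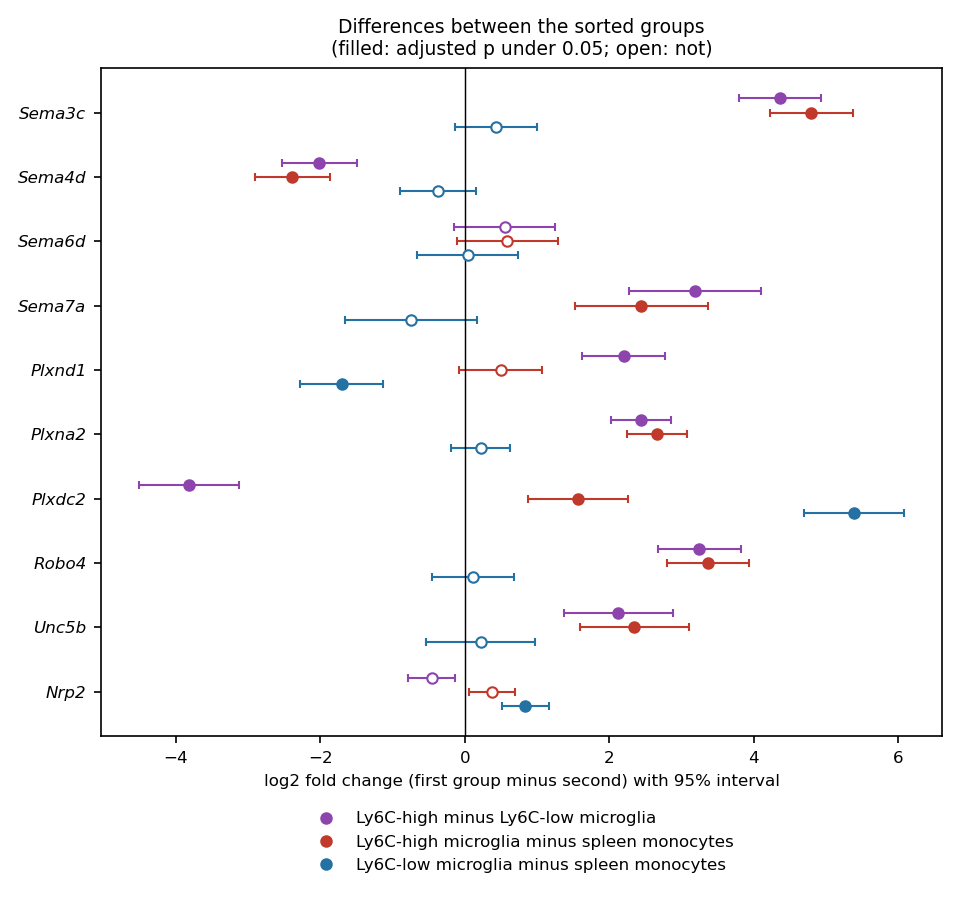
Log2 fold change (horizontal axis) of each gene in the 3 comparisons, with the nominal 95% interval of the limma fit; filled points passed an adjusted p under 0.05. The comparisons share groups, and the plot shows Plxdc2 at -3.82, 1.57 and 5.39 and Sema3c at 4.36, 4.80 and 0.43.

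Against monocytes, 7 of the 10 genes changed in Ly6C-high microglia (6 higher, 1 lower) and 3 in Ly6C-low microglia (Plxdc2 and Nrp2 higher, Plxnd1 lower). Of all genes, 21.5% passed in Ly6C-high microglia against monocytes (6.88% higher, 14.6% lower) and 14.5% in Ly6C-low microglia against monocytes (6.80% higher, 7.71% lower). Median log2 fold changes of the 10 genes were 1.96 and 0.17, against 0.09 and 0.05 over all genes. The arrays did not overlap for 9 and 5 of the 10 genes, as for 45.9% and 42.3% of all genes. These 2 comparisons use the same monocyte arrays. Under quantile normalization and cyclic loess all 10 genes passed between Ly6C-high microglia and monocytes, Sema6d, Plxnd1 and Nrp2 being added as higher. Over all 19937 genes the higher calls also rose, but the lower calls fell by more, so that fewer genes passed in all. The calls were 1371 higher and 2919 lower as deposited, 1494 and 1729 under quantile normalization, and 1601 and 1957 under cyclic loess.

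Within groups, several guidance genes and marker lists were highest on the same array. Ly6C-low replicate 1 had the highest endothelium list of its group (7.75, against 7.19 and 6.41 in replicates 2 and 3), and all 6 guidance genes that were higher in Ly6C-high microglia had their highest Ly6C-low value on that array. The same array was also highest of its group in the pericyte and smooth muscle list (7.45, against 7.0 and 6.48), the choroid plexus list (8.21, against 7.15 and 6.84) and the astrocyte, oligodendrocyte and neuron lists. So were the means of 20 semaphorins (6.38, against 6.31 and 6.24) and 20 ephrin and Eph genes (5.82, against 5.70 and 5.72). The mean of 15 plexins, neuropilins and other semaphorin receptors was not. The share of all genes with their highest Ly6C-low value on that array was not counted. The range among Ly6C-low arrays was 0.76 for Sema3c, 0.43 for Sema7a, 0.49 for Plxnd1, 0.39 for Plxna2, 0.33 for Robo4 and 0.55 for Unc5b. Plxdc2, Sema6d (7.66), Nrp2 (7.31) and the brighter Sema4d probe set had their lowest Ly6C-low values on replicate 1. The dimmer Sema4d probe set had its highest there (7.69). Within Ly6C-high microglia, replicate 3 was highest both in Plxdc2 (8.58) and in the homeostatic microglia list (8.74, against 7.84 and 7.90). It was also highest in Sema3c, Sema6d, Plxna2, Robo4, Unc5b and Nrp2, while Sema4d, Sema7a and Plxnd1 were highest in replicate 2. Replicate 1 was lowest in all of the 10 genes but Sema4d and Unc5b. The mean of the 10 genes was 7.95, 8.51 and 8.67 in Ly6C-high replicates 1 to 3. The part of RNA of these other cell types in the differences was not tested.

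The genes of most similar pattern over the 9 arrays were taken by Pearson correlation, as a description of arrays that fall into 3 groups. Sema3c ran closest to Prom1 (r = 0.999), which encodes CD133, and Foxf2 (0.997), a transcription factor of brain vessels. Robo4 ran closest to Grb14 (0.996) and the endothelial exchange factor Arhgef15 (0.995), Plxna2 to Fam13c (0.998) and the Wnt inhibitor Apcdd1 (0.995), and Unc5b to Plat (0.985), tissue plasminogen activator, and Rasip1 (0.982). Sema7a came next to Ppic (0.983) and Csrp2 (0.982), and Plxnd1 next to the phosphodiesterase Pde2a (0.973) and Agfg1 (0.972). Plxdc2 ran with the fractalkine receptor Cx3cr1 (0.997) and the glutamate transporter Slc1a3 (0.995), Nrp2 with Cd81 (0.978) and Kcnj2 (0.977), and Sema4d with Pes1 (0.991) and Sash3 (0.988). The closest genes to Sema6d, Cd2ap and Gna11, reached only 0.907 and 0.902.

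The wider semaphorin family of 20 genes had 3 higher members (Sema3c, Sema6a and Sema7a) and 3 lower ones (Sema4b, Sema4d and Sema4g) in Ly6C-high against Ly6C-low microglia, with a median log2 fold change of 0.09. Of all genes 4.49% passed as higher and 11% as lower in this comparison, and the lower count of semaphorins lies near that share. Sema6a, a ligand of Plxna2 and Plxna4, stood at 8.73, 8.83 and 9.65 in Ly6C-high microglia, 6.43, 5.97 and 5.82 in Ly6C-low microglia and 5.80, 6.02 and 6.29 in monocytes (log2 fold change between the microglia groups 3.0 ± 0.27, adjusted p = 1.93e-04). Sema4g was 5.83 ± 0.30 in Ly6C-high and 7.45 ± 0.04 in Ly6C-low microglia (SD, n = 3 each, adjusted p = 2.09e-04), and Sema4b 6.90 ± 0.33 and 7.85 ± 0.10 (adjusted p = 0.0117). Compared with monocytes, Ly6C-high microglia had 6 higher and 3 lower semaphorins. For Ly6C-low microglia these numbers were 2 and 1, a share near the 14.5% of all genes, which was 21.5% for Ly6C-high microglia. Sema4a, lower than in monocytes in both, read 6.84, 9.18 and 6.23 in Ly6C-high microglia, and its calls were lost in 11 and 9 of 20 alternatives. Among the semaphorins higher in Ly6C-high microglia than in monocytes, Sema6b lost its call in 12 and Sema3g in 2 of 20 alternatives.

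**Figure D4:**
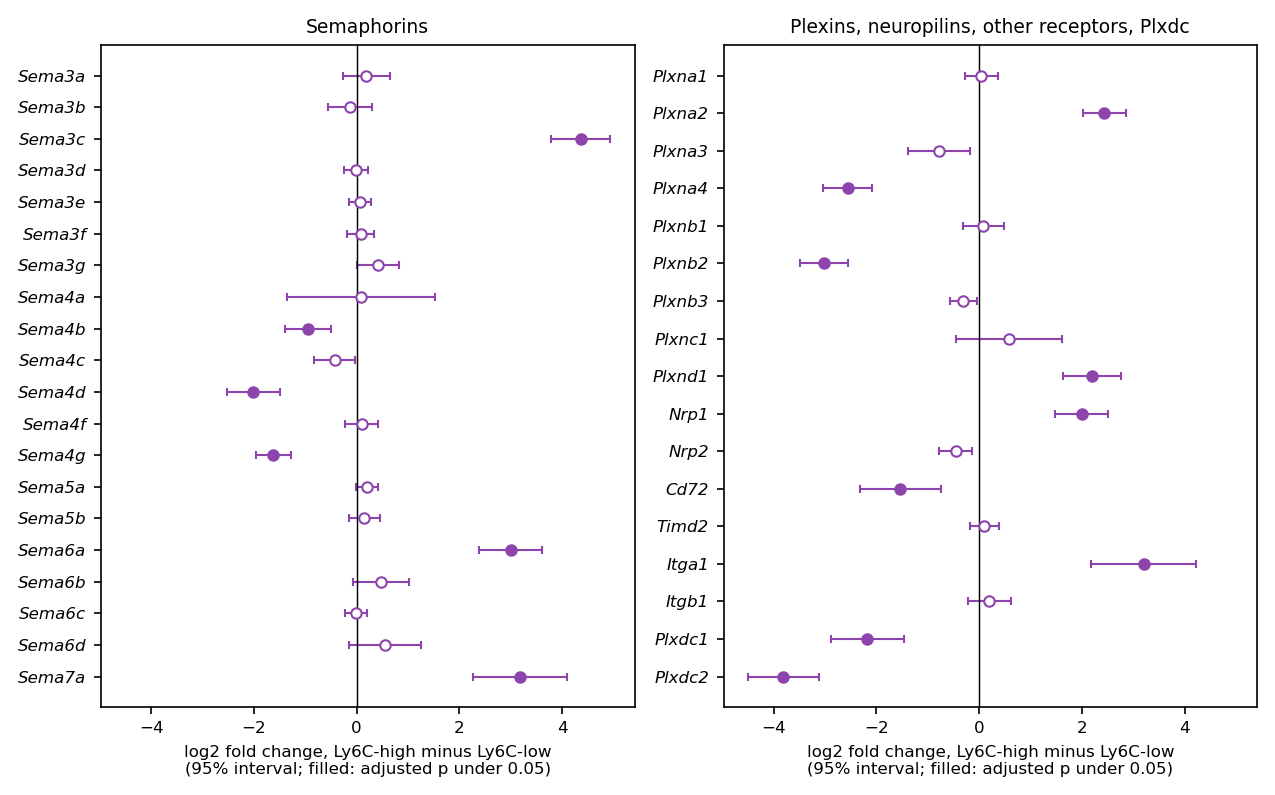
Log2 fold change of Ly6C-high against Ly6C-low microglia (horizontal axis, with the nominal 95% interval) for 20 semaphorins (left) and for plexins, neuropilins, other semaphorin receptors and the Plxdc genes (right); filled points passed an adjusted p under 0.05. Sema3c, Sema6a and Sema7a lie on the high side, and Plxnb2, Plxna4 and the Plxdc genes on the low side.

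Of 15 plexins, neuropilins and other semaphorin receptors, 4 were higher (Plxna2, Plxnd1, Nrp1 and the integrin Itga1) and 3 lower (Plxna4, Plxnb2 and Cd72) in Ly6C-high against Ly6C-low microglia (median 0.08), beside 4.49% of all genes as higher and 11% as lower. Known ligands and receptors can be set side by side. Of the receptors of Sema3c, Nrp1 was at 8.73, 9.17 and 9.42 in Ly6C-high microglia, 6.85, 7.55 and 6.92 in Ly6C-low microglia and 7.60, 7.55 and 7.65 in monocytes (2.0 ± 0.22 between the microglia groups, adjusted p = 6.02e-04). Sema3c, Nrp1, Plxnd1 and Plxna2 were thus higher in Ly6C-high than in Ly6C-low microglia, and Nrp2 was not. Of the other A-type plexins, Plxna4 was lower, and Plxna1 and Plxna3 did not pass. Of the receptors of Sema4d, Plxnb2 was at 7.03, 7.74 and 6.90 in Ly6C-high microglia, 10.22, 10.28 and 10.24 in Ly6C-low microglia and 9.05, 8.88 and 9.21 in monocytes (-3.02 ± 0.21 between the microglia groups, adjusted p = 6.55e-05). Cd72 was also lower (-1.53 ± 0.35, adjusted p = 0.0184, lost in 4 of 20 alternatives), and Plxnb1 differed by 0.08 ± 0.18 (adjusted p = 0.776). Plxna4, a receptor of class 3 and class 6 semaphorins, was at 6.84, 6.49 and 7.27 in Ly6C-high microglia against 9.16, 9.55 and 9.57 in Ly6C-low microglia (-2.56 ± 0.21, adjusted p = 1.22e-04) and 5.54, 5.78 and 5.82 in monocytes. For Sema7a, Plxnc1 was highest in monocytes (8.95 ± 0.14, against 6.16 ± 1.10 in Ly6C-high and 5.58 ± 0.15 in Ly6C-low microglia, SD, n = 3 each), with 7.43 in Ly6C-high replicate 2, while the beta 1 integrin Itgb1 differed by 0.20 ± 0.18 between the microglia groups (adjusted p = 0.502).

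Of 10 Slit, Robo and srGAP genes, Robo4 and Robo2 were higher and Srgap2 lower in Ly6C-high against Ly6C-low microglia (median 0.14), and none of the 3 Slit ligands passed in any comparison. Robo2 rose by 0.41 ± 0.12 only, and lost its call in 12 of 19 alternatives. Srgap2, a GTPase activator downstream of Robo, was 9.82 ± 0.51 in Ly6C-high microglia and 11.62 ± 0.10 in Ly6C-low microglia (adjusted p = 0.00188), against 8.51 ± 0.30 in monocytes (SD, n = 3 each). Of 16 measured netrin, Unc5, Dcc, Rgm and Flrt genes, Unc5b and Ntn4, a vascular basement membrane netrin, were higher and Rgmb lower (median 0.11). Ntn4 differed by 0.97 ± 0.23 (adjusted p = 0.0207, lost in 5 of 20 alternatives), and Ntn1, the classical ligand of Unc5b, by 0.23 ± 0.15 (adjusted p = 0.352). Of 24 intracellular partners of plexins, 1 was higher and 2 lower (median -0.03). Arhgef12, which binds B-type plexins, was higher (0.93 ± 0.14, adjusted p = 0.00233). The cofilin kinase Limk1 (-1.24 ± 0.14, adjusted p = 5.48e-04) and the tyrosine kinase Fes (-0.81 ± 0.22, adjusted p = 0.0402, lost in 14 of 20 alternatives) were lower. Of 20 measured ephrin and Eph genes, 1 was higher (Ephb4, lost in 6 of 19 alternatives) and 2 lower (Epha2 and Ephb3), with a median of 0.13. The counts in these last 3 lists, 3 of 16, 3 of 24 and 3 of 20, lie near the 15.4% of all genes. Against monocytes, Ly6C-high microglia had 3 higher and 5 lower of the 24 plexin partners and 4 higher and 0 lower of the 20 ephrin and Eph genes, where 21.5% of all genes passed. Ly6C-low microglia had 2 higher and 2 lower partners and 6 higher and 0 lower ephrin and Eph genes, where 14.5% of all genes passed and 6.80% as higher.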

How the data were processed

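RNA of 9 sorted samples was hybridized to Affymetrix whole-transcript arrays, 3 per group, per the labels' protocols. The authors deposited log2 intensities per probe set. Per the submitters' processing notes, RMA and oligo were used. For their versions and settings, and for the build, the sources used here give nothing. The number of arrays limits the precision.

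Of 34760 probe sets, 21640 have 1 gene symbol in the platform annotation, 1321 several and 11799 no symbol. The brightest probe set by mean over 9 arrays stood for a gene. Values were used as deposited. limma 3.58.1 in R 4.3.3 fitted 3 group means to all 9 arrays, and Benjamini-Hochberg adjustment ran over 19937 genes per comparison. The code was tested on simulated data.

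The 10 genes, lists, motifs and rules were chosen with earlier results of these data known. From each guidance list up to 4 other genes past the threshold per comparison, largest first, could be named, and for each member the 2 most correlated genes with a mean at or above the median (6.13) and no predicted symbol. Plxnb1, Itgb1, Ntn1 and the other known partners that did not pass fall outside this rule and were picked with their values in view. Plxnc1 and Cd72 fall inside it against monocytes, but outside it between the microglia groups, and were also picked with their values in view. Proteins were not analysed here. There were 20 alternatives: normalization, filter, probe sets, arrays fitted, variance model, weights, blocks and arrays left out.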

Additional observations from a re-analysis of the deposited data

How the results depend on the processing

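The 597 results of single guidance genes under the alternatives lost no call, 581 kept direction and side of the threshold, and 12 gained a call. Of these, Nrp2 between the microglia groups gained its call with the replicate number as a block (-0.46, adjusted p = 0.0396) and with the description number as a block (-0.45, adjusted p = 0.0319), each giving 9 of 10 genes, against 8 without. Deviations of same-numbered arrays of the microglia groups had correlations of 0.30, 0.15 and -0.03, too few values to show whether the replicate numbers pair them. The 2 microglia pairs that share a description number had 0.30 and 0.21, the highest of all pairs, but 2 pairs are too few to settle a pairing. The pair at 0.30 is the same in both numberings. The replicate block moved no other count of these genes. Leaving out single arrays, 8 genes were called between the microglia groups each time, 7 to 8 between Ly6C-high microglia and monocytes and 3 to 4 between Ly6C-low microglia and monocytes. With dim genes removed Unc5b was not tested (7, 6 and 3 calls). Only Sema6d between Ly6C-low microglia and monocytes (0.04) turned its sign, to -0.0098 under median centring and within -0.22 to 0.36 with single arrays left out. The counts over all genes moved more. The 3080 genes between the microglia groups became 2038 when only their 6 arrays were fitted and 1956 to 3888 with single arrays left out (2011 without Ly6C-low replicate 2 and 1956 without replicate 3), and their share of higher calls was 29.1%, 41.7% under quantile normalization and 43.9% under cyclic loess. The 4290 between Ly6C-high microglia and monocytes ran from 2505 (without monocyte replicate 1) to 6091, with 2511 without monocyte replicate 2 and a share of higher calls of 32.0%, 46.4% under quantile normalization and 45.0% under cyclic loess. The 2894 between Ly6C-low microglia and monocytes became 4614 with only their 6 arrays and 5738 with array weights, and ran from 1864 (without monocyte replicate 1) to 3778. Of 71 calls of other guidance genes 24 were lost in at least 1 alternative, and under cyclic loess Rhoa (0.15) and Cfl1 (0.19) turned sign between Ly6C-high microglia and monocytes. The causes were not tested. Arrays without detection calls do not show whether a low value is above background.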
